A study of Mus musculus with 16 samples.

Results

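The genes described here are 10 factors and adhesion genes of the epithelial-mesenchymal transition (EMT), followed across 16 RNA sequencing libraries of sorted mouse pancreatic cancer cells. They were chosen by name: the transcription factors Zeb1, Zeb2, Snai1, Snai2, Twist1 and Prrx1, the cell state genes Vim and Epcam, and the cadherins Cdh1 and Cdh2. All 10 were found among the 24467 genes in the files, and all 10 were among the 15963 that passed edgeR's expression filter. KPC pancreatic ductal adenocarcinoma cells carrying a 7TCF-eGFP reporter and a construct named Porcn-DMA formed orthotopic tumours in the pancreas of host mice, and cells of the dissociated tumours were sorted by fluorescence. The sorted populations were DP (positive for GFP and mScarlet), mScarlet (positive for mScarlet alone), GFP (positive for GFP alone) and DN (negative for both), with 4 libraries each from 4 mice per group. All groups share the cell line, both constructs and the host tissue, no group is free of the constructs, and the sources used here do not say whether the line is a single clone, nor give the age or strain of the mice. In the 7TCF-eGFP reporter a promoter with TCF sites drives GFP, so the GFP gate stands for the WNT-responsive cells of the design. The design also names WNT-secreting cells, for which mScarlet is the gate that remains, although no label says so in words.

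In EMT, epithelial cells lose the junctions that hold them together and take on a motile, mesenchymal form. The ZEB, SNAIL and TWIST proteins and PRRX1 are transcription factors of this change, and the SNAIL and ZEB proteins repress the E-cadherin gene Cdh1 through E-box elements. Vim encodes the intermediate filament protein vimentin, Cdh2 encodes N-cadherin, and Epcam encodes an adhesion molecule of epithelial cells. In pancreatic cancer, tumour cells can occupy states along this axis, and fibroblasts and macrophages of the tumour also express several of these genes.

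Total counts ran from 80647185 to 104273669 per library. Levels are given as CPM, the read count of a gene relative to the total of its library, scaled with edgeR's TMM factors, and a count of 0 in a library allows up to 3 counts, worth 0.0284 to 0.0388 CPM, for counting error only. The cancer epithelium markers (Krt7, Krt8, Krt18, Krt19, Muc1 and Sox9) were detected in every library, with summed levels from 15500 CPM in GFP library 1 to 43900 CPM in the mScarlet group. Some libraries also stood apart in markers of other cells. GFP library 4 held 10600 CPM of 12 summed fibroblast markers and 23500 CPM of 11 summed acinar markers, and GFP library 1 held 23100 CPM of 12 summed macrophage markers. Main results that rest on these libraries are given with and without them, and all other values include both. In such bulk samples, fewer cells of a type and less RNA per cell cannot be told apart.

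Per exonic kilobase, Cdh1 and Vim stood far above the other 8 genes in every library. Cdh1 averaged 206 ± 73.4 CPM per kb and Vim 155 ± 48.8 CPM per kb (SD, n = 16), and the lowest library of either gene had 67.4 CPM per kb. Among the rest, Epcam averaged 0.905 ± 3.28, Snai1 0.591 ± 0.912, Zeb1 0.415 ± 0.174 and Twist1 0.237 ± 0.547 CPM per kb. Snai2 followed at 0.177 ± 0.215, Zeb2 at 0.128 ± 0.196, Prrx1 at 0.0753 ± 0.199 and Cdh2 at 0.0477 ± 0.0445 CPM per kb. Over the 16 libraries together, the spreads of Cdh1 and Vim overlapped, as did those of neighbours among the other 8 means. By gate, Cdh1 lay above Vim without overlap in DP (173 to 287 against 98.3 to 142 CPM per kb). The same held in mScarlet (193 to 316 against 112 to 165), while the ranges overlapped in GFP and DN. In DN, Vim had the higher mean (207 against 158 CPM per kb). By medians, which a single library moves less, Zeb1 led the 8 with 0.402 CPM per kb and Snai1 followed with 0.306. The libraries of all 4 gates thus held abundant transcripts of E-cadherin and of vimentin, with low levels of the EMT transcription factors and of N-cadherin. Bulk levels do not show which cells held these transcripts, or whether the same cells held both.

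**Figure D1:**
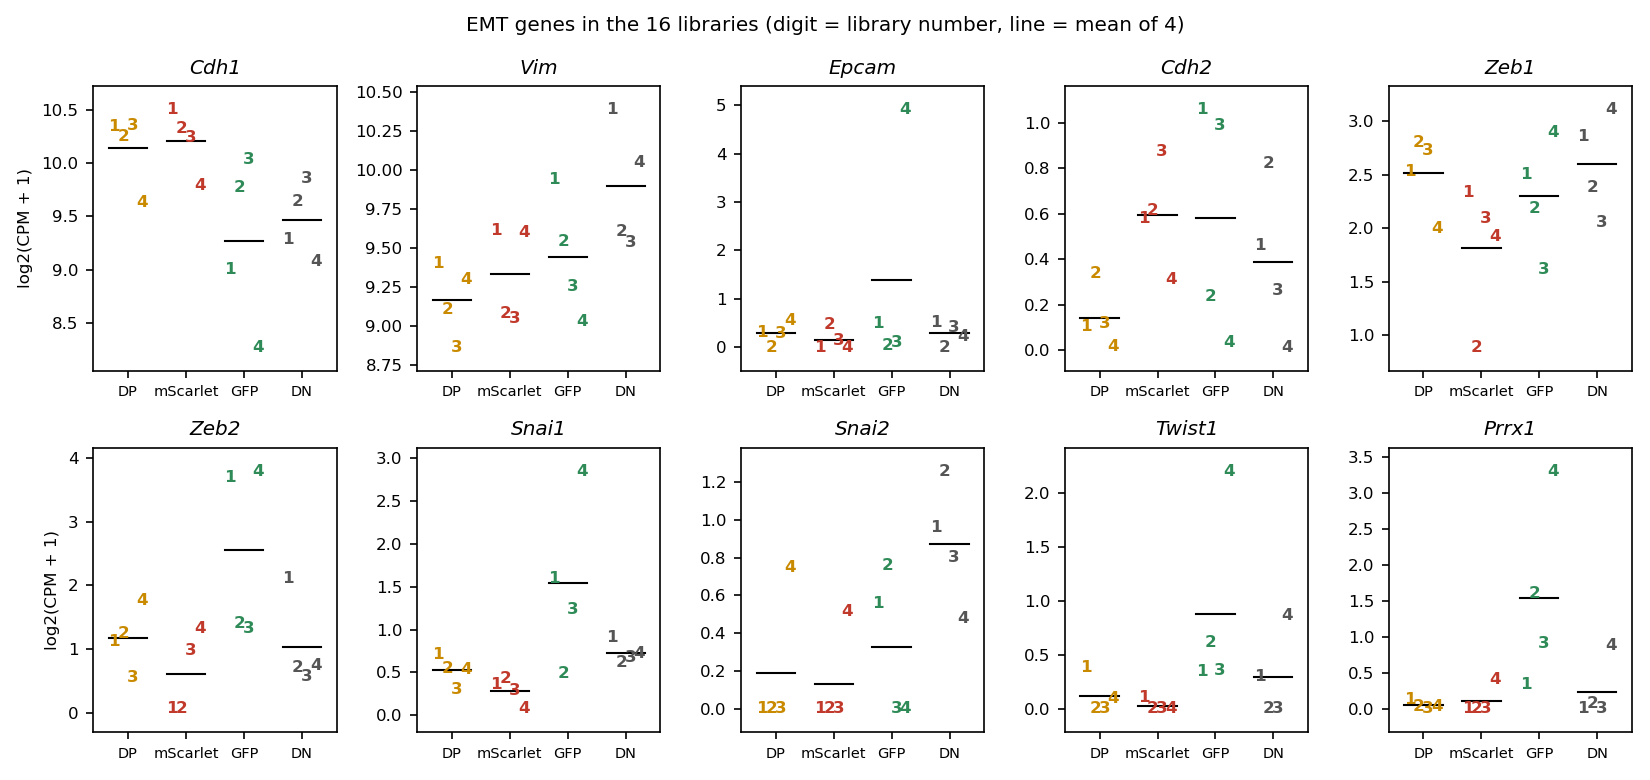
Level of each of the 10 genes as log2(CPM + 1) in the 16 libraries, by sorted group, with a separate vertical scale for each gene. Digits are library numbers and lines are means of 4 libraries. Cdh1 was highest in DP and mScarlet libraries, while GFP library 4 held the highest values of Zeb2, Snai1, Twist1, Prrx1 and Epcam and the lowest of Cdh1.

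The E-box CACCTG (or its reverse complement CAGGTG) is the element through which SNAIL and ZEB proteins act, and it was looked for in the promoters of the members. RefSeq promoter windows of GRCm38.p6, 250 bases before to 50 after a gene's start, were at hand for Zeb2, Snai1, Twist1, Prrx1, Vim and Epcam. The element was found on either strand in the windows of Snai1 and Epcam and not in those of Zeb2, Twist1, Prrx1 or Vim, against 20.2% of all 32851 promoters in the table. The broader E-box CANNTG, which includes the first, was in 72.3% of all promoters. The 250 bases before the start are printed for Snai1 (chr2:167537945-167538194, plus strand) and Epcam (chr17:87635729-87635978, plus strand), since these are the windows with a match, and capitals mark it:
Snai1: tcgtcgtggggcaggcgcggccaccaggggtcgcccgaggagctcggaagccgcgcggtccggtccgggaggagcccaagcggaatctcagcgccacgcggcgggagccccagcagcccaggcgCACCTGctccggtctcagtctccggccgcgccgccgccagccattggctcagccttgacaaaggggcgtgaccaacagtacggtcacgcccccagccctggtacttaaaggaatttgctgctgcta
Epcam: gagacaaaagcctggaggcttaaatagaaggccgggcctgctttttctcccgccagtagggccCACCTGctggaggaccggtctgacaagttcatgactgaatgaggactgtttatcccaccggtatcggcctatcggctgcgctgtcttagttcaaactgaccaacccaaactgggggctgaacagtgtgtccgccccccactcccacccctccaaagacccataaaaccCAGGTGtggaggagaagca
The matches begin at position -126 from the start of Snai1 and at positions -187 and -19 from that of Epcam. A match is a string of letters, and no binding was measured.

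The gates cross, so each can be tested as an average over the other. For mScarlet, DP and mScarlet libraries together (mScarlet-positive) were set against GFP and DN libraries together (mScarlet-negative), in edgeR's quasi-likelihood test over all genes with Benjamini-Hochberg adjustment. A gene was called at an adjusted p under 0.05. Libraries of different gates may come from the same mouse, which the labels do not settle. Of the 10 genes, Cdh1 was called higher and Snai1 lower, where 8.73% of all genes tested were called either way, 3.52% higher and 5.21% lower. Their median log2 fold change was -1.78, against -0.02 for all genes tested, and Cdh1 alone had a positive value. Without GFP libraries 1 and 4 the median was -0.75, against 0.01 for all genes, Cdh1 and Epcam were positive, and none of the 10 was called. edgeR did not call the other 8 genes, while DESeq2 called 1 member higher, Cdh1, and 3 lower, Snai1, Prrx1 (adjusted p = 0.0332) and Vim (adjusted p = 0.0355). With the library number as a block, edgeR called Cdh1 higher and Vim and Twist1 lower, and Snai1 was not called. Over all genes tested, DESeq2 called 857 higher and 1481 lower, and the block gave 1063 higher and 1234 lower.

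Cdh1 (Entrez 12550, chromosome 8 from 106603350 to 106670247 in GRCm38, plus strand) encodes E-cadherin, the calcium-dependent adhesion molecule of adherens junctions. Libraries 1 to 4 had 1300, 1220, 1310 and 790 CPM in DP and 1450, 1280, 1210 and 882 CPM in mScarlet. They had 513, 876, 1050 and 308 CPM in GFP and 621, 799, 926 and 538 CPM in DN. The mScarlet-positive and mScarlet-negative ranges overlapped, and library 4 was the lowest of its group in all 4 groups. Between libraries of the same number, mScarlet lay above DN, DP above GFP and DP above DN in 4 of 4 numbers each. Cdh1 rose in mScarlet-positive cells, with a mean of 1180 ± 225 CPM against 703 ± 248 CPM in mScarlet-negative cells (SD, n = 8 libraries each; log2 fold change 0.75, SE 0.22, edgeR adjusted p = 0.0427).

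For Cdh1 the call stood close to the threshold. It was kept in 10 of 22 alternatives and in 6 of 16 fits that left out 1 library, where the log2 fold change lay between 0.62 and 0.88 and the adjusted p between 0.0157 and 0.0872. It was lost without DP library 1, 2 or 3, mScarlet library 1, 2 or 3, GFP library 1, or DN library 1, 2 or 4. Without GFP libraries 1 and 4 together the log2 fold change was 0.50 (edgeR adjusted p = 0.103). The summed cancer epithelium markers moved alongside, from 27900 to 43900 CPM in mScarlet-positive libraries and from 15500 to 31000 CPM in mScarlet-negative ones. The summed fibroblast markers ran the other way, from 18.1 to 282 CPM and from 139 to 10600 CPM in the same libraries. Their part in the result was not tested.

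In single comparisons of groups, Cdh1 was not called without a block for the library number. In mScarlet against DN its log2 fold change was 0.74 (SE 0.31, edgeR adjusted p = 0.274), and with the number as a block 0.76 (adjusted p = 0.0409). In DP against GFP it was 0.75 (SE 0.31, adjusted p = 0.239), with the block 0.84 (adjusted p = 0.0289), and without GFP libraries 1 and 4 it was 0.27 (adjusted p = 0.847). The size in mScarlet against DN, which uses no GFP library, was 0.72 without those libraries in the fit. In DP against DN it was 0.68 (SE 0.31, adjusted p = 0.287) and in GFP against mScarlet -0.81 (SE 0.31, adjusted p = 0.158). The latter was -0.32 without GFP libraries 1 and 4 (adjusted p = 0.727). Along the GFP gate the values were -0.07 (SE 0.30) in GFP against DN and -0.06 (SE 0.30) in DP against mScarlet, neither called.

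**Figure D2:**
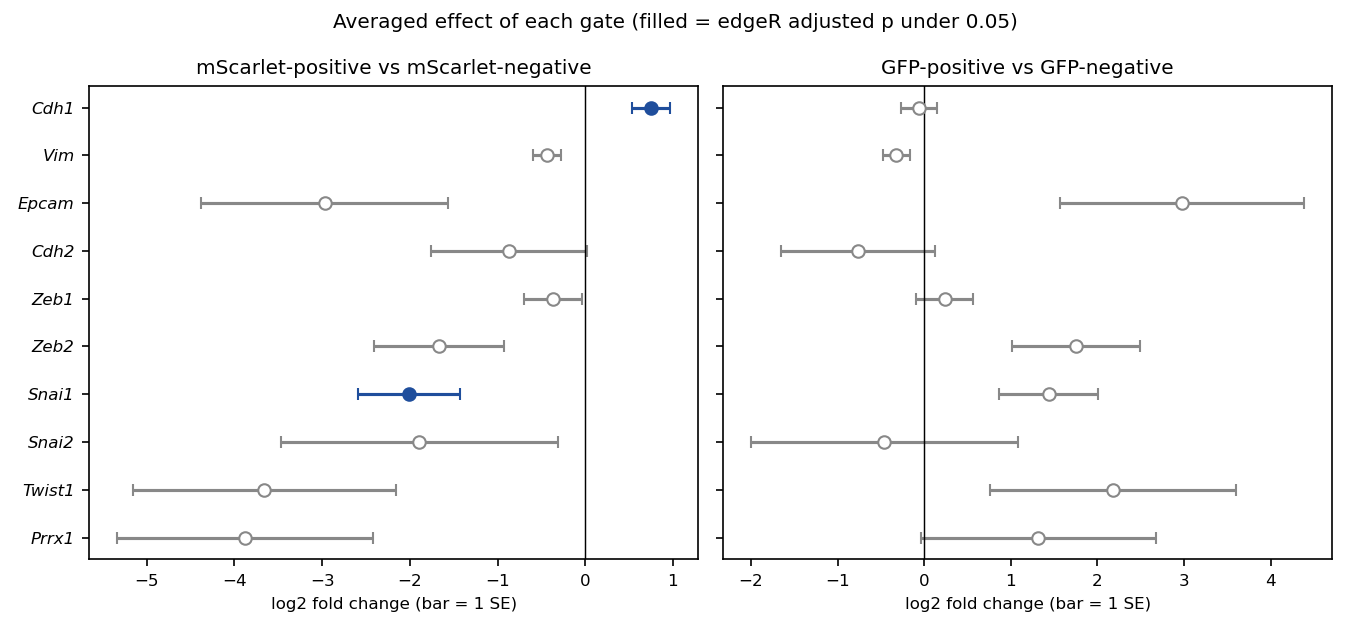
Log2 fold changes of the 10 genes in mScarlet-positive over mScarlet-negative libraries (left) and GFP-positive over GFP-negative libraries (right), with bars of 1 SE. Filled points mark an edgeR adjusted p under 0.05, reached on the left by Cdh1 (0.75) and Snai1 (-2.01) and on the right by no member.

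Snai1 (Entrez 20613, chromosome 2 from 167538195 to 167542814, plus strand) encodes SNAIL, a zinc finger repressor of Cdh1. Levels in libraries 1 to 4 were 0.639, 0.464, 0.23 and 0.451 CPM in DP and 0.28, 0.349, 0.222 and 0.0549 CPM in mScarlet. They were 2.03, 0.407, 1.36 and 6.19 CPM in GFP and 0.87, 0.529, 0.597 and 0.652 CPM in DN. All mScarlet libraries lay below all DN and all GFP libraries, and the highest value, in GFP library 4, came from 508 counts. Snai1 fell in mScarlet-positive cells, with a mean of 0.336 ± 0.181 CPM against 1.58 ± 1.94 CPM in mScarlet-negative cells (SD, n = 8 libraries each; log2 fold change -2.01, SE 0.58, edgeR adjusted p = 0.0421).

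This call was kept in 5 of 22 alternatives, and among the fits that left out 1 library only in those without GFP library 2 or GFP library 3. Its adjusted p there lay between 0.0203 and 0.131, and the log2 fold change between -2.20 and -1.52. Without GFP libraries 1 and 4, which held the 2 highest values, the log2 fold change was -1.26 (edgeR adjusted p = 0.337). With the library number as a block it was -1.90 and not called (adjusted p = 0.067), and DESeq2 gave -2.06 (adjusted p = 0.00279). In GFP against mScarlet the log2 fold change was 3.46 (SE 0.87, edgeR adjusted p = 0.0558), and DESeq2 gave 3.53 (adjusted p = 0.000323). In mScarlet against DN, where no value overlapped, it was -1.54 (SE 0.81, adjusted p = 0.413), and in DP against GFP it was -2.48 (SE 0.83, adjusted p = 0.15; DESeq2 adjusted p = 0.0203). It was 1.91 in GFP against DN (SE 0.82), 0.97 in DP against mScarlet (SE 0.80) and -0.57 in DP against DN (SE 0.79), none of them called. Without GFP libraries 1 and 4, Snai1 stood at 1.95 in GFP against mScarlet, -0.97 in DP against GFP and 0.39 in GFP against DN. None of these was called (edgeR adjusted p = 0.584, 0.872 and 0.947).

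Vim (Entrez 22352, chromosome 2 from 13574311 to 13582826, plus strand) had its highest mean in DN. In library order, 1 to 4, there were 676, 552, 466 and 629 CPM in DP and 782, 542, 530 and 778 CPM in mScarlet. There were 981, 747, 610 and 522 CPM in GFP and 1340, 779, 744 and 1060 CPM in DN. All DP libraries lay below all DN libraries, and in all 4 numbers the mScarlet and GFP libraries were each below the DN library of their number.

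The DP mean was 581 ± 91.7 CPM against 982 ± 279 CPM in DN (SD, n = 4 each; log2 fold change -0.76, SE 0.23, edgeR adjusted p = 0.0997). That difference was not called, and it was called with the block (-0.73, adjusted p = 0.0115), with DESeq2 (-0.78, adjusted p = 0.021) and without GFP libraries 1 and 4 (-0.77, adjusted p = 0.0404). In mScarlet against DN the log2 fold change was -0.58 (SE 0.23, adjusted p = 0.243), with the block -0.56 (adjusted p = 0.0441). It was -0.46 in GFP against DN (SE 0.23), -0.30 in DP against GFP (SE 0.23), -0.18 in DP against mScarlet (SE 0.23) and 0.12 in GFP against mScarlet (SE 0.23), none of them called. Averaged over the GFP gate, mScarlet-positive cells had 619 ± 118 CPM and mScarlet-negative cells 849 ± 266 CPM (SD, n = 8 libraries each; log2 fold change -0.44, SE 0.16, edgeR adjusted p = 0.0981). GFP library 4, with the highest fibroblast markers, had the lowest Vim of its group.

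Zeb1 (Entrez 21417), a zinc finger repressor of epithelial genes, was the most evenly detected of the transcription factors. The 4 libraries, in number order, had 4.77, 5.96, 5.59 and 2.98 CPM in DP and 4.05, 0.854, 3.26 and 2.8 CPM in mScarlet. They had 4.67, 3.54, 2.07 and 6.44 CPM in GFP and 6.22, 4.21, 3.15 and 7.6 CPM in DN. The groups overlapped in every comparison, and mScarlet had the lowest mean, 2.74 ± 1.36 CPM against 5.3 ± 2 CPM in DN (SD, n = 4 each; log2 fold change -0.95, edgeR adjusted p = 0.379). Averaged over the GFP gate, the log2 fold change in mScarlet-positive cells was -0.37 (SE 0.33, adjusted p = 0.546). Zeb1 shares 198 exonic bases with the antisense transcript Gm10125, and no use of strand is stated, so their reads cannot be told apart there.

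Zeb2 (Entrez 24136, chromosome 2 from 44983512 to 45117442, minus strand), the paralogue of Zeb1, was uneven. Levels in libraries 1 to 4 were 1.19, 1.37, 0.472 and 2.39 CPM in DP and 0.0538, 0.0518, 0.975 and 1.52 CPM in mScarlet. They were 11.9, 1.65, 1.51 and 12.8 CPM in GFP and 3.3, 0.637, 0.498 and 0.682 CPM in DN. GFP libraries 1 and 4 stood far above the rest, and mScarlet libraries 1 and 2 had only 5 and 4 counts. The mean was 6.96 ± 6.22 CPM in GFP and 0.649 ± 0.723 CPM in mScarlet (SD, n = 4 each; log2 fold change 3.42, edgeR adjusted p = 0.112). DESeq2 gave an adjusted p of 0.0079 for this difference, and without GFP libraries 1 and 4 the edgeR log2 fold change was 1.29 (adjusted p = 0.797).

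Macrophages express Zeb2, and the summed macrophage markers were 23100 CPM in GFP library 1 but 372 CPM in GFP library 4, where fibroblast markers were 10600 CPM. The part of these cells in the Zeb2 values was not tested. The mScarlet-positive average differed by -1.67 on the log2 scale (SE 0.74, edgeR adjusted p = 0.179), and by -0.61 without GFP libraries 1 and 4 (adjusted p = 0.757). Zeb2 shares 653 exonic bases with the antisense gene Zeb2os.

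Snai2 (Entrez 20583, chromosome 16 from 14705852 to 14709395, plus strand), which encodes SLUG, was found in every DN library and in few others. The 4 libraries, in number order, had 0, 0, 0 and 0.677 CPM in DP and 0, 0, 0 and 0.428 CPM in mScarlet. They had 0.469, 0.694, 0 and 0 CPM in GFP and 0.946, 1.39, 0.741 and 0.391 CPM in DN. The DN values came from 100, 129, 67 and 39 counts. Library 4 was thus the only DP and the only mScarlet library with reads of the gene. The mScarlet-positive average differed by -1.89 on the log2 scale (SE 1.58, edgeR adjusted p = 0.514), and the GFP-positive average by -0.46 (SE 1.54, adjusted p = 0.975). The first was -5.38 without DP library 4 (adjusted p = 0.0984), -5.03 without mScarlet library 4 (adjusted p = 0.12) and -6.22 when blocked by library number (adjusted p = 0.0961), and was called in none of them.

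Twist1 (Entrez 22160, chromosome 12 from 33957671 to 33959831, plus strand), a basic helix-loop-helix factor of mesoderm and mesenchyme, was low outside 1 library. In library order, 1 to 4, there were 0.303, 0, 0 and 0.0677 CPM in DP and 0.0754, 0, 0 and 0 CPM in mScarlet. There were 0.271, 0.527, 0.282 and 3.61 CPM in GFP and 0.227, 0, 0 and 0.823 CPM in DN. Each GFP library lay above each mScarlet library, with means of 1.17 ± 1.63 CPM in GFP and 0.0188 ± 0.0377 CPM in mScarlet (SD, n = 4 each; edgeR adjusted p = 0.184, with the fitted log2 fold change of 5.84 resting on 7 counts in mScarlet). That log2 fold change was 4.32 without GFP libraries 1 and 4 (edgeR adjusted p = 0.628).

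Prrx1 (Entrez 18933, chromosome 1 from 163245119 to 163315145, minus strand), a homeobox factor of mesenchyme, followed a like order. Levels in libraries 1 to 4 were 0.0975, 0.0251, 0 and 0.0226 CPM in DP and 0, 0, 0 and 0.318 CPM in mScarlet. They were 0.26, 2.02, 0.872 and 8.82 CPM in GFP and 0, 0.054, 0 and 0.833 CPM in DN. All GFP libraries lay above all DP libraries, with 25, 169, 71 and 724 counts in GFP against 9, 2, 0 and 2 counts in DP. The fitted log2 fold change of -6.30 in DP against GFP was not called (edgeR adjusted p = 0.186; DESeq2 adjusted p = 0.0245), nor was that of 5.2 in GFP against mScarlet (adjusted p = 0.203). Without GFP libraries 1 and 4 they were -5.25 and 4.17 (edgeR adjusted p = 0.62 and 0.617).

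GFP 4, GFP 2 and DN 4, the 3 libraries with the most fibroblast marker reads, also held the 3 highest Twist1 levels, and GFP 4 and GFP 2 the 2 highest Prrx1 levels. Summed fibroblast markers in libraries 1 to 4 were 110, 147, 28 and 282 CPM in DP and 89.2, 18.1, 31.2 and 61.1 CPM in mScarlet. They were 834, 1810, 629 and 10600 CPM in GFP and 442, 139, 178 and 1550 CPM in DN. No fibroblast marker of the 12 was at 0 in any GFP library, nor in DP libraries 2 and 4 or DN libraries 3 and 4. The library with the most at 0 was mScarlet library 2, with Lum, Pdgfrb, Dpt and Pi16. In mScarlet-positive against mScarlet-negative cells, 7 of the 12 fibroblast markers fell and 0 rose, against 5.21% lower over all genes tested, among them Pdgfrb by 5.33 and Col1a1 by 3.58 on the log2 scale (edgeR adjusted p = 0.00229 and 0.00714). Without GFP libraries 1 and 4, 5 of the 12 were called, all lower. The part of fibroblast RNA in the values of Twist1, Prrx1, Snai1 and Zeb2 was not tested. Averaged over the GFP gate, Twist1 differed by -3.66 (SE 1.5, edgeR adjusted p = 0.144) and Prrx1 by -3.88 (SE 1.46, adjusted p = 0.111) in mScarlet-positive cells. Without GFP libraries 1 and 4 these values were -2.89 (adjusted p = 0.38) and -3.36 (adjusted p = 0.273). Without mScarlet library 4, the only mScarlet library with Prrx1 reads, Prrx1 was called at -6.82 (adjusted p = 0.0289), and without DN library 4 its value was -2.13 (adjusted p = 0.393). Twist1 stood at -5.61 without mScarlet library 1 (adjusted p = 0.0945).

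**Figure D3:**
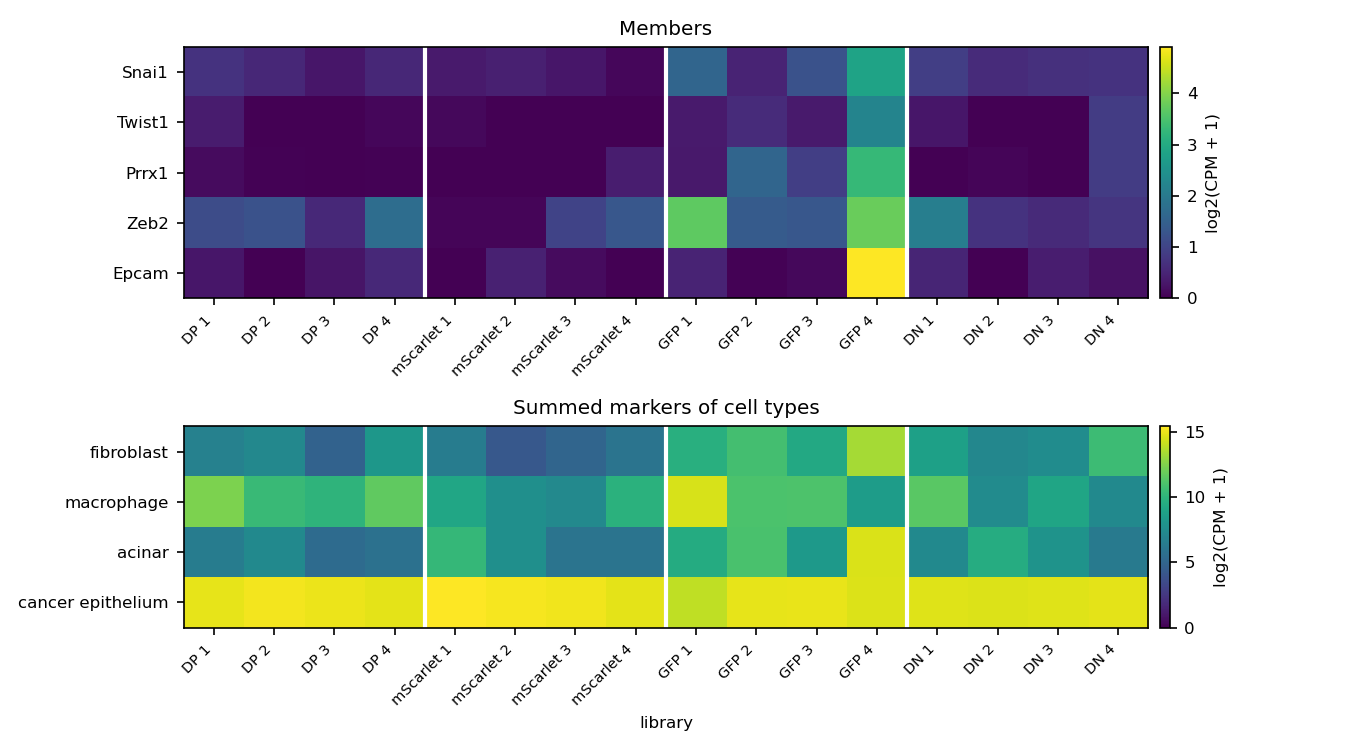
Levels of 5 members (top) and summed levels of marker lists (bottom) in each library, as log2(CPM + 1) on a colour scale of its own in each panel. GFP library 4 is brightest for all 5 members and for fibroblast and acinar markers, GFP library 1 for macrophage markers, and cancer epithelium markers are high in all libraries.

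Epcam (Entrez 17075, chromosome 17 from 87635979 to 87651127, plus strand) was near 0 in all libraries but 1. The 4 libraries, in number order, had 0.228, 0, 0.218 and 0.474 CPM in DP and 0, 0.375, 0.0997 and 0 CPM in mScarlet. They had 0.396, 0.0239, 0.0736 and 29 CPM in GFP and 0.426, 0, 0.321 and 0.171 CPM in DN. The value of 29 CPM, from 2377 counts, was in GFP library 4, where Cdh1 was at its lowest and acinar markers summed to 23500 CPM, against at most 2040 CPM in any other library. Acinar cells are epithelial, and their part in this value was not tested. The fitted log2 fold changes rested on that library: in GFP against DN the value was 5.00 with it (edgeR adjusted p = 0.49), and -2.23 without GFP libraries 1 and 4 (adjusted p = 0.841). In GFP against mScarlet it was 5.95 and -1.27, and in DP against GFP -4.99 and 2.22, in the same order, none of them called. Outside that library, no value of Epcam exceeded 0.474 CPM, in libraries with abundant keratin and Cdh1 transcripts.

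Cdh2 (Entrez 12558) was also scarce. In library order, 1 to 4, there were 0.0758, 0.263, 0.0847 and 0.0113 CPM in DP and 0.495, 0.531, 0.831 and 0.242 CPM in mScarlet. There were 1.08, 0.18, 0.982 and 0.0244 CPM in GFP and 0.378, 0.766, 0.199 and 0.01 CPM in DN. Library 4 was the lowest of its group in each group, with a single count in DP and in DN, and the groups overlapped in every comparison. The mScarlet-positive average differed by -0.87 on the log2 scale (SE 0.89, edgeR adjusted p = 0.609), and the GFP-positive average by -0.76 (SE 0.89, adjusted p = 0.881). N-cadherin transcripts were thus not called along either gate.

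In the 6 comparisons between groups, edgeR called none of the 10 members. The share of all genes called was 1.18% in mScarlet against DN (0.482% higher, 0.695% lower), 0.564% in DP against GFP (0.2% higher, 0.363% lower) and 2.32% in DP against DN (0.614% higher, 1.71% lower). It was 1.53% in GFP against mScarlet (1.06% higher, 0.47% lower) and 0% in GFP against DN and in DP against mScarlet, where 1551 and 460 genes had an unadjusted p under 0.05 and DESeq2 called 246 and 50. At an unadjusted p under 0.05 there were 2 members in mScarlet against DN, 5 in DP against GFP and 2 in DP against DN. There were 6 in GFP against mScarlet, 3 in GFP against DN and 0 in DP against mScarlet. Of all 15963 genes tested, 2273 reached that p in mScarlet against DN and 2540 in DP against GFP. In DP against DN there were 2520 such genes, and in GFP against mScarlet 3060. DESeq2 called Snai1 and Prrx1 in DP against GFP, Vim in DP against DN, Zeb2 and Snai1 in GFP against mScarlet, and no member in the other 3. These comparisons share libraries, so their member counts are not independent of each other.

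The GFP gate was tested in the same way, with DP and GFP libraries together (GFP-positive) against mScarlet and DN libraries together (GFP-negative). edgeR called none of the 10 members and 0% of all genes tested, with 1551 genes at an unadjusted p under 0.05 and 323 called by DESeq2. Of the members, Zeb2 and Snai1 had an unadjusted p under 0.05, and DESeq2 called none. Their log2 fold changes were 1.75 for Zeb2 (SE 0.74, edgeR adjusted p = 0.457) and 1.44 for Snai1 (SE 0.57, adjusted p = 0.414). Both were smaller without GFP libraries 1 and 4, at 0.68 for Zeb2 and 0.69 for Snai1. Cdh1 differed by -0.06 (SE 0.21), Vim by -0.32 (SE 0.16) and Zeb1 by 0.24 (SE 0.33). Twist1 at 2.18 (SE 1.42), Prrx1 at 1.32 (SE 1.36) and Epcam at 2.98 (SE 1.41) had wide errors.

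Whether the effect of 1 gate differed with the other was tested as an interaction. edgeR called no gene, which is 0% of those tested, with 525 genes and 0 members at an unadjusted p under 0.05, and DESeq2 called 39 genes and no member. The interaction of Cdh1 was 0.01 on the log2 scale (SE 0.43), that of Vim 0.28 (SE 0.32) and that of Snai1 -0.94 (SE 1.13). Prrx1 had -4.85 (SE 2.77), Epcam -4.04 (SE 2.74) and Cdh2 -3.00 (SE 1.80), all with wide errors.

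Some other genes of cell junctions were, like Cdh1, higher in mScarlet-positive cells. Of 30 epithelial junction genes, all tested, 9 rose and 0 fell in mScarlet-positive cells (edgeR adjusted p under 0.05), with a median log2 fold change of 0.49, against -0.02 and 3.52% higher over all genes. DESeq2 called 12 higher and 0 lower, and at an unadjusted p under 0.05 there were 15 higher and 2 lower. Over all 15963 genes tested, DESeq2 called 857 higher and 1481 lower, and 3825 had an unadjusted p under 0.05 in either direction. Leaving out 1 library at a time gave 4 to 11 of the 30, all higher, with 4 without mScarlet library 2 or DN library 1, and 5 without DP library 1 or 3, mScarlet library 1 or 3, or DN library 4. The largest rises were those of desmosome genes: Dsg2, a desmosomal cadherin, by 1.60 on the log2 scale (SE 0.39, adjusted p = 0.0197), Dsc2, another, by 2.36-fold (adjusted p = 0.0257), and Dsp, the plaque protein desmoplakin, by 1.12 on that scale (SE 0.27, adjusted p = 0.017). Dsg2 averaged 49.3 ± 25.8 CPM in mScarlet-positive and 16.4 ± 6.73 CPM in mScarlet-negative libraries (SD, n = 8 each).

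Ocln, the tight junction protein occludin, rose by 1.05 on the log2 scale (SE 0.29, edgeR adjusted p = 0.0366), with 12.5 ± 3.38 CPM in mScarlet-positive and 6 ± 2.99 CPM in mScarlet-negative libraries (SD, n = 8 each). The other genes called were Marveld2 and Tjp3 of tight junctions, the polarity gene Crb3, the protease inhibitor Spint2 and Ctnnb1, which encodes beta-catenin, the partner of E-cadherin and of TCF factors. Of the 16 fits that left out 1 library, Ocln and Crb3 were called in 6 each, Tjp3 in 5, Marveld2 and Dsc2 in 11 each, and Dsg2, Dsp, Spint2 and Ctnnb1 in all 16. Spint2 ranged from 1560 to 1930 CPM in mScarlet-positive and from 554 to 1470 CPM in mScarlet-negative libraries, without overlap. Ctnnb1 averaged 842 ± 118 CPM in mScarlet-positive and 580 ± 113 CPM in mScarlet-negative libraries (SD, n = 8 each). Leaving out GFP libraries 1 and 4, 3 of the 30 were called, Dsg2, Dsp and Spint2, all higher. In single comparisons edgeR called none of the 30. At an unadjusted p under 0.05, mScarlet against DN had 12 higher and 0 lower, and DP against DN 13 higher and 0 lower. DP against GFP had 9 higher and 2 lower, and GFP against mScarlet 5 higher and 11 lower. Of all 15963 genes tested, 2273, 2520, 2540 and 3060 had such a p in the same order. DESeq2 called 2 higher, 6 higher, 1 higher, and 2 higher with 2 lower in the same order. Over all genes it called 317, 347 and 271 higher, and in GFP against mScarlet 1152 higher and 371 lower. With the library number as a block, 4 of the 30 were called in mScarlet against DN, 4 in DP against DN and 2 in DP against GFP, all higher. Of all 15963 genes tested, the block gave 402, 394 and 340 higher in these comparisons. In GFP against mScarlet with the block, 1 was higher and 4 were lower, against 709 higher and 481 lower over all genes.

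**Figure D4:**
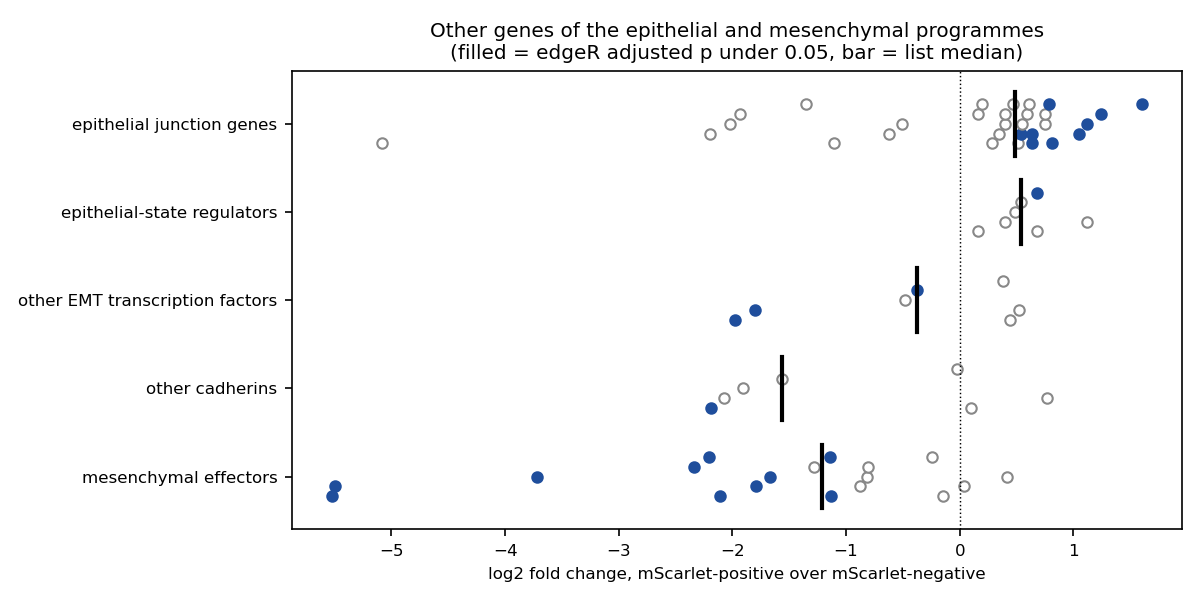
Log2 fold changes in mScarlet-positive over mScarlet-negative libraries for the tested genes of 5 lists, with filled points for an edgeR adjusted p under 0.05 and bars for list medians. The filled points lie right of 0 among junction genes (9 of 30) and left of 0 among mesenchymal effectors (10 of 18).

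Genes of mesenchymal effectors that were called lay in the opposite direction. Of 18, all tested, 10 fell and 0 rose in mScarlet-positive cells, with a median log2 fold change of -1.21, against 5.21% of all genes lower. DESeq2 called 12 lower and 0 higher, and at an unadjusted p under 0.05 there were 13 lower and 0 higher. Among all 15963 genes tested, DESeq2 called 1481 lower, and 3825 had an unadjusted p under 0.05 in either direction. Of the 18, 9 were called without GFP libraries 1 and 4, all lower. Tnc, which encodes the matrix protein tenascin C, fell by 5.50 on the log2 scale (SE 0.62, edgeR adjusted p = 0.000274), with values of 0 to 2.17 CPM in mScarlet-positive and 2.83 to 17.2 CPM in mScarlet-negative libraries, without overlap. In mScarlet libraries Tnc had 6 counts in all, so its fitted changes depend on few reads.

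Fscn1, the actin bundler fascin, fell by 3.72 on the log2 scale (SE 0.74, edgeR adjusted p = 0.00708), with 0.739 ± 0.543 CPM in mScarlet-positive and 10.9 ± 14.6 CPM in mScarlet-negative libraries (SD, n = 8 each). Loxl2, a matrix cross-linking enzyme, fell by 2.34 (SE 0.38, adjusted p = 0.00228), with values of 5.14 to 21.2 CPM in mScarlet-positive and 32.3 to 111 CPM in mScarlet-negative libraries, without overlap. Cnn1, the smooth muscle protein calponin, also fell (adjusted p = 0.00923), with 54 counts summed over mScarlet-positive and 887 over mScarlet-negative libraries, and 1 count in the mScarlet group. The other genes called were Tagln, S100a4, Axl, Fn1, Msn and Itga5. Fibronectin, encoded by Fn1, ranged from 221 to 423 CPM in mScarlet-positive and from 597 to 3050 CPM in mScarlet-negative libraries.

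Single comparisons called some of these: 2 of 18 in mScarlet against DN, 3 in DP against GFP and 3 in DP against DN, all lower. Blocking on the library number, these were 8, 7 and 6, and without GFP libraries 1 and 4 they were 8, 0 and 5, all lower. Among all genes tested, 463, 473 and 623 were lower with the block, and 318, 1 and 439 without those libraries. In mScarlet against DN, Tnc fell by 7.77 on the log2 scale (SE 0.99, edgeR adjusted p = 0.00221) and S100a4 by 2.02 (SE 0.39, adjusted p = 0.0206). In DP against GFP, S100a4 fell by 2.21 (SE 0.39, adjusted p = 0.0327), Fn1 by 1.97 (SE 0.37, adjusted p = 0.0346) and Itga5 by 1.27 (SE 0.24, adjusted p = 0.0346), and none of the 3 was called without GFP libraries 1 and 4 (adjusted p = 0.23, 0.214 and 0.332). S100a4, a calcium-binding protein of motile cells, had 10 ± 2.74 CPM in DP, 16.3 ± 7.99 CPM in mScarlet, 46.5 ± 15.4 CPM in GFP and 66.2 ± 26.8 CPM in DN (SD, n = 4 each). In DP against DN, which holds no GFP library, S100a4 fell by 2.72 (SE 0.40, adjusted p = 0.00392), Loxl2 by 2.32 (SE 0.54, adjusted p = 0.0372) and Itga5 by 0.99 (SE 0.24, adjusted p = 0.0406).

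In GFP against mScarlet, edgeR called 7 of the 18 higher and 0 lower, against 1.06% higher and 0.47% lower over all genes tested. The 7 were Tnc, Cnn1, Fscn1, Loxl2, Fn1, Axl and Itga5, and the median log2 fold change of the 18 was 1.78. Blocking on the library number, 12 of the 18 were called higher and 0 lower, against 709 higher and 481 lower over all genes. Tnc had 12.4 ± 5.22 CPM in GFP and 0.0164 ± 0.0189 CPM in mScarlet (SD, n = 4 each; edgeR adjusted p = 0.00182). Of the 7, Tnc alone was still called without GFP libraries 1 and 4 (adjusted p = 0.00683). Fibroblasts express many of these effectors, and the fibroblast marker sums given above ran in the same direction in GFP against mScarlet. The part of fibroblast RNA in the effector values was not tested.

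Among 12 other EMT transcription factors, 7 were tested, and edgeR called 3 of them lower and 0 higher in mScarlet-positive cells, against 5.21% lower and 3.52% higher over all genes tested. DESeq2 called the same 3 lower and 1, Sox4, higher, for which edgeR gave a log2 fold change of 0.44 (SE 0.15, adjusted p = 0.0768). Over all genes tested, DESeq2 called 1481 lower and 857 higher. Hmga2, a chromatin architecture protein, fell by 1.98 on the log2 scale (SE 0.41, edgeR adjusted p = 0.00808), with 1.72 ± 1.15 CPM in mScarlet-positive and 6.55 ± 3.5 CPM in mScarlet-negative libraries (SD, n = 8 each). Prrx2, the paralogue of Prrx1, fell by 1.80 (SE 0.43, adjusted p = 0.0193), and Tcf3, which encodes the E2A proteins, by 0.38 (SE 0.09, adjusted p = 0.016). Prrx2 had 3.15 to 25.6 CPM in mScarlet-positive and 22.1 to 106 CPM in mScarlet-negative libraries. Hmga2 alone of the 3 was called without GFP libraries 1 and 4 (adjusted p = 0.0156). Hmga2 was also called in DP against DN, where it fell by 2.36 (SE 0.59, adjusted p = 0.0462). Blocking on the library number, 1 of the 7 was lower in mScarlet against DN, 2 in DP against GFP and 3 in DP against DN. All genes tested had 463, 473 and 623 lower there. In GFP against mScarlet, 1 was then higher, against 709 over all genes.

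Of 10 epithelial-state regulators, 7 were tested and Esrp2, an epithelial splicing regulator, was called, higher by 0.68 on the log2 scale (SE 0.15, edgeR adjusted p = 0.0128) in mScarlet-positive cells. It averaged 94.8 ± 16.8 CPM in mScarlet-positive and 59.1 ± 13.3 CPM in mScarlet-negative libraries (SD, n = 8 each), and was not called without GFP libraries 1 and 4 (adjusted p = 0.0618). Of 7 other cadherins, Cdh11, the cadherin of mesenchymal cells and fibroblasts, was called, lower by 2.19 (SE 0.61, adjusted p = 0.0358), and higher by 4.35 in GFP against mScarlet (SE 0.94, adjusted p = 0.0367). Neither Cdh11 call was kept without GFP libraries 1 and 4 (adjusted p = 0.211 and 0.354). Blocking on the library number, 1 of the 7 regulators was higher in mScarlet against DN and 2 in DP against DN. In GFP against mScarlet, 1 regulator was then lower. Of the 7 other cadherins, 1 was lower with the block in mScarlet against DN and 1 in DP against DN. In GFP against mScarlet, 1 cadherin was higher. Over all genes, the block gave 402 higher and 463 lower in mScarlet against DN. It gave 394 higher and 623 lower in DP against DN, and 709 higher and 481 lower in GFP against mScarlet.

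The genes most like each member across the 16 libraries were taken from those with a mean of at least 10 CPM, by Pearson correlation of log2(CPM + 1), as a description, since libraries of a group share its sort. For Cdh1 these were Ttc38 (r = 0.98), Erbb3 (r = 0.98) and Ugt2b35 (r = 0.97), and without the 2 libraries farthest from its median, GFP 4 and GFP 1, r was 0.97, 0.96 and 0.93. For Vim they were Anxa2 (r = 0.92), Cnn2 (r = 0.91) and Acan (r = 0.90), and r stayed at 0.82 or more without DN library 1 and DP library 3. For Zeb1 they were Tmem241 (r = 0.89), Agk (r = 0.85) and Tmem185b (r = 0.79), and r was 0.79, 0.70 and 0.58 without mScarlet library 2 and DN library 4. For Zeb2 they were Npc2 (r = 0.93), Gramd1a (r = 0.92) and Nfil3 (r = 0.91), and r was 0.81, 0.85 and 0.75 without GFP libraries 4 and 1. For Epcam they were Map1lc3a, Id3 and Col4a2 (r = 0.93, 0.92 and 0.91), with Spearman's rho of 0.28, 0.13 and 0.27, and r without GFP library 4 and DP library 4 was 0.14, -0.18 and 0.45, so the likeness rests on those libraries. No other member was among these genes.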

How the data were processed

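The deposited files hold raw, unnormalized counts of reads for each gene, with Entrez identifiers. The submitters' processing notes name GRCm38 (mm10), STAR and DESeq2 1.24.0, with no role for each. The way reads were counted, the gene models and the handling of strand were not given in the sources used here. Per the labels' protocols, full-length cDNA was amplified by PCR from low-input RNA, so counts are not independent molecules. Of the identifiers, 24437 matched a symbol in RefSeq's GRCm38.p6 gene table. The other 30, with 0.723% to 1.93% of the counts, stayed in the totals. Positions and promoters came from RefSeq (GRCm38.p6), and strands, exon lengths and overlaps from the GENCODE annotation of GRCm38.

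Counts were tested with edgeR 4.0.16 in R 4.3.3 (robust quasi-likelihood fit, TMM scaling, expression filter by group) in all 16 libraries, with group as the only term and Benjamini-Hochberg adjustment over all genes tested. DESeq2 1.42.0 was an alternative. The steps were tested on simulated counts. No libraries of a group agreed within sampling noise (lowest chi-square per degree of freedom 78.56). Nothing in the labels says which samples came from the same mouse. Deviations of same-numbered libraries from their group means correlated between 0.092 and 0.608 (23 of 24 pairs over 0.1). The exception was number 4 in GFP and mScarlet (0.092), and 1 such value does not settle which groups the number pairs. Most libraries correlated best with the library of their own number in the other group. Those that did not were DP library 2 and mScarlet libraries 2 and 4, each against the GFP libraries. The main tests leave the number out and so use no such pairing, and blocked values are given as an alternative.

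The members and gene lists were chosen with earlier results of these data known. Named genes were the 10 members, up to 4 called genes per list by largest change with a mean of 1 CPM or more in the higher group, and the 3 genes most like each member with a mean of at least 1 CPM. The remaining called genes of a list were named to complete its count.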

Additional observations from a re-analysis of the deposited data

Results flagged for a closer look

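In 8 of 40 groups of 4 libraries, 1 library stood apart from the other 3 by Dixon's criterion at the 95% level. The rate of 1 in 20 groups by chance holds for normally distributed values and cannot be used here. A group with reads in only 1 library meets the criterion by construction, as did Snai2 in DP and mScarlet and Twist1 and Prrx1 in mScarlet. GFP library 4 was high for Epcam (29 CPM) and Twist1 (3.61 CPM). Library 4 was also high in DP for Snai2 (0.677 CPM), in mScarlet for Snai2 (0.428 CPM) and Prrx1 (0.318 CPM), and in DN for Prrx1 (0.833 CPM). Library 1 was high for Twist1 in mScarlet (0.0754 CPM, 7 counts) and for Zeb2 in DN (3.3 CPM).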

How the results depend on the processing

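Counts of genes called moved by more than 1.5 times under several settings. With the replicate number as a block they were 865 in mScarlet against DN, 813 in DP against GFP, 11 in GFP against DN, 1017 in DP against DN, 1190 in GFP against mScarlet, 2297 in mScarlet-positive against mScarlet-negative and 80 in GFP-positive against GFP-negative cells, compared with 188, 90, 0, 371, 245, 1393 and 0 without it. DESeq2 called 808, 1005, 246, 1020, 1523, 2338 and 323 in the same order, 50 in DP against mScarlet and 39 for the interaction. With DESeq2's size factors in edgeR, DP against GFP had 137. Without a filter on low counts GFP against mScarlet had 141, and DP against mScarlet and the GFP-positive average had 1 each. Fits of the compared groups alone gave 343 in mScarlet against DN, 1 in DP against GFP, 578 in DP against DN and 2 in GFP against mScarlet. Without GFP libraries 1 and 4, chosen after seeing the data, these 4 were 580, 1, 761 and 2, the mScarlet-positive average had 681 and the GFP-positive average 2. Leaving out 1 library at a time gave 17 to 362 in mScarlet against DN, 1 to 297 in DP against GFP, 0 to 2 in GFP against DN, 0 to 1 in DP against mScarlet, 105 to 532 in DP against DN, 6 to 524 in GFP against mScarlet, 861 to 1640 for the mScarlet-positive and 0 to 5 for the GFP-positive average. The cause was not tested.

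The labels do not settle whether the library number, used as the block, marks 1 mouse. With the block, Cdh1 in mScarlet-positive cells was 0.80 (edgeR adjusted p = 0.0021), Vim -0.43 (0.0145), Twist1 -4.66 (0.0377) and Snai1 -1.90 (0.067). In GFP against mScarlet with the block, Cdh1 was -0.92 (edgeR adjusted p = 0.0153), Twist1 7.82 (0.0385) and Prrx1 7.14 (0.0365). There, 1 of 30 junction genes was higher and 4 were lower. Without GFP libraries 1 and 4 the log2 fold change turned in Epcam (0.63 for the mScarlet-positive and -0.64 for the GFP-positive average, -2.23 in GFP against DN, -1.27 in GFP against mScarlet, 2.22 in DP against GFP), in Cdh1 (0.17 for the GFP-positive average, 0.39 in GFP against DN) and in Zeb1 (-0.05 for the GFP-positive average). Leaving out 1 library, the GFP-positive average ran from -3.91 to 2.68 for Snai2 and from -0.21 to 0.05 for Cdh1, Cdh1 from -0.37 to 0.15 in GFP against DN and from -0.19 to 0.08 in DP against mScarlet, Vim from -0.06 to 0.24 in GFP against mScarlet, and Epcam from -0.51 to 5.5 in GFP against DN and from -5.66 to 0.5 in DP against GFP. None of these was called. The E-box count was the same, 2 promoters, for the wider motif. Members below about 1 CPM rest on few reads, which limits their precision.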
